A study of Mus musculus with 8 samples.

Results

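The 42 genes described here encode proteins of autophagy and of the lysosome. They were listed by name, without a threshold on a measured value but with earlier results of these arrays known, and run from the kinases that start autophagy, through the proteins that build the autophagosome and its cargo receptors, to lysosomal membrane proteins and hydrolases. All 42 had at least 1 probe on the array, among 34529 genes with a probe, and each gene was represented by its probe with the highest mean signal over the arrays. Of them, 38 passed the filter on dim probes, among 20570 genes of the array that did. The other 4, Atg4a (a protease that cleaves ATG8 proteins), Ctsh and Ctsl (cathepsins H and L) and Hexa (a subunit of beta-hexosaminidase), were not well above background on any of the 8 arrays, so they carry no fold change here and the counts below leave them out.

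RNA was measured on 8 single-colour Agilent arrays in the mouse pre-B line 1676, whose genotype was SLP-65-/- LAT-/-. Both adaptor proteins were therefore missing in every group, controls included. The cells had been infected with a retroviral vector and selected in puromycin at 1 µg/ml. Fetal calf serum (FCS) was at 7.5% in every group, those without interleukin-7 included. The labels' design text speaks of independently generated clones for the 2 repetitions. The 4 groups, with 2 arrays each, were miR-125b cells (a vector for hsa-miR-125b-1) kept for 24 h without interleukin-7 (IL-7), control-vector cells kept for 24 h without IL-7, miR-125b cells with IL-7, and control-vector cells with IL-7. IL-7 is the cytokine these cells grow in, it was supplied as the supernatant of cells that secrete it, and per the labels its removal was meant to induce pre-B cell differentiation. The comparisons ask whether the miRNA alters the expression of these genes, whether withdrawal does, and whether the response to withdrawal depends on the miRNA.

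Autophagy encloses cytoplasm in a membrane that closes into an autophagosome and fuses with a lysosome, where hydrolases degrade the content. A kinase complex with ULK1 or ULK2 starts it, a lipid kinase complex with Beclin 1 marks the membrane, and ubiquitin-like conjugation attaches ATG8 proteins (the LC3 and GABARAP families) to that membrane, where receptors such as p62 dock with their cargo. In blood cells autophagy is known to be induced when nutrients or growth factors are withdrawn, largely through protein phosphorylation, and the transcription factors TFEB and TFE3 raise many of its genes and those of the lysosome by binding an E-box in their promoters. The arrays measure RNA, not autophagic flux.

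The miRNA is shown because its seed, bases 2 to 8 and in capitals here, is the stretch that pairs with target transcripts; the sequence is the mature mouse miRNA of RefSeq (GRCm38.p6, chr9:41581940-41581961, plus strand).
mmu-miR-125b-5p: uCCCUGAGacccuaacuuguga
The complement of this seed, CTCAGGG, was in 0 of the 60 array probes for these genes and in 0.44% of all 55681 probes. A probe covers only 60 bases of a transcript, so this count says nothing about the rest.

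The E-box CACGTG, read on both strands (it is its own reverse complement), was looked for in RefSeq promoter windows of 300 bases, from 250 bases before to 50 bases after each start site, which were at hand for 35 of the 42 genes. At least 1 was found in 9 of these 35 (25.7%), against 8.09% of 27025 genes with a window: Atg3, Atg5, Atg7, Atg14, Lamp1, Ctsa, Ctsd, Ctsl and Mcoln1. The CLEAR element, a longer palindrome of lysosomal genes with the E-box at its centre, was searched only as 1 exact run of letters. That run was in none of the 35 and in 0.37% of all genes. Runs that differ from it by 1 base were not counted, and the windows of Lamp1, Ctsa and Ctsd below each hold such a run. The search therefore cannot tell whether these genes lack a variant of the element. The forkhead motif TGTTTAC was likewise searched as 1 exact run, on both strands, and was in none of the 35 and in 4.05% of all genes. Runs that differ from it by 1 base were again not counted, and the window of Gabarapl1 below holds such a run. Whether these genes lack a variant of the forkhead motif therefore cannot be told from the search. The windows of Lamp1, Ctsa and Ctsd are shown for the E-boxes they hold, in capitals, and those of Atg4d and Gabarapl1 because these genes carried the largest called vector difference and the largest fall on withdrawal. No capitals stand in the last pair, since none of the 3 motifs was found there as an exact run.
Lamp1 (chr8:13158911-13159210, plus strand, GRCm38.p6): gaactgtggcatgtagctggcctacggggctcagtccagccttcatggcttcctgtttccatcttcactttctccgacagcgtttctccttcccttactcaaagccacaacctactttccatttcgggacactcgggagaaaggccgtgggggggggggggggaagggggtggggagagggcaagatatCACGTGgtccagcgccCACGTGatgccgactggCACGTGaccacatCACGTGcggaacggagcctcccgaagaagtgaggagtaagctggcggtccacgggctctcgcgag
Ctsa (chr2:164833523-164833822, plus strand, GRCm38.p6): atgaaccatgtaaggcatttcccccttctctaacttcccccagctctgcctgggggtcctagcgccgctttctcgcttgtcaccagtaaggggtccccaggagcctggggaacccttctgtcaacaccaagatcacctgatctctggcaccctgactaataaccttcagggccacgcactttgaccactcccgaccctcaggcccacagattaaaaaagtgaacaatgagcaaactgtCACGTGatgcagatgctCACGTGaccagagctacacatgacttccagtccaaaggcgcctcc
Ctsd (chr7:142387778-142388077, minus strand, GRCm38.p6): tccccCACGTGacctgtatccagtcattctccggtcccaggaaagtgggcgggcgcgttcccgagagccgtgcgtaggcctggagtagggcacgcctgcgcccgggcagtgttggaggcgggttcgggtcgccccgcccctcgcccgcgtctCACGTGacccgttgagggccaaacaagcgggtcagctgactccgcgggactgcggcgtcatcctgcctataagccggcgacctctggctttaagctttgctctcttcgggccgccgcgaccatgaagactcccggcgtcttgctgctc
Atg4d (chr9:21265035-21265334, plus strand, GRCm38.p6): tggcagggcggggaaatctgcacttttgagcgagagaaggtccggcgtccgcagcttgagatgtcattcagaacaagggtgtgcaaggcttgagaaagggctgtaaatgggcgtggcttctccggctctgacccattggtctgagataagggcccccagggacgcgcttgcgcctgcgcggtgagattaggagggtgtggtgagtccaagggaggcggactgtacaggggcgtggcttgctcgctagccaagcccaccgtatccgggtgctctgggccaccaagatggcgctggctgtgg
Gabarapl1 (chr6:129532942-129533241, plus strand, GRCm38.p6): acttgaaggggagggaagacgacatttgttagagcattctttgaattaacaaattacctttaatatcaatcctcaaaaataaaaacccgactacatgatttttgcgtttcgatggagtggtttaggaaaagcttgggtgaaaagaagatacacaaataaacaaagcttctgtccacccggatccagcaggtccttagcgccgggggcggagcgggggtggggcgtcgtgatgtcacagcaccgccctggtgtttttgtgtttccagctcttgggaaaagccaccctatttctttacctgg
Lamp1 held 4 E-boxes within its last 61 bases before the start site, Ctsa 2 on either side of the start site, and Ctsd 2, at 245 and 98 bases before it. A second annotated start site of Ctsa, chr2:164832622-164832921, held none. A match is a run of letters and not a measured binding site.

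**Figure D1:**
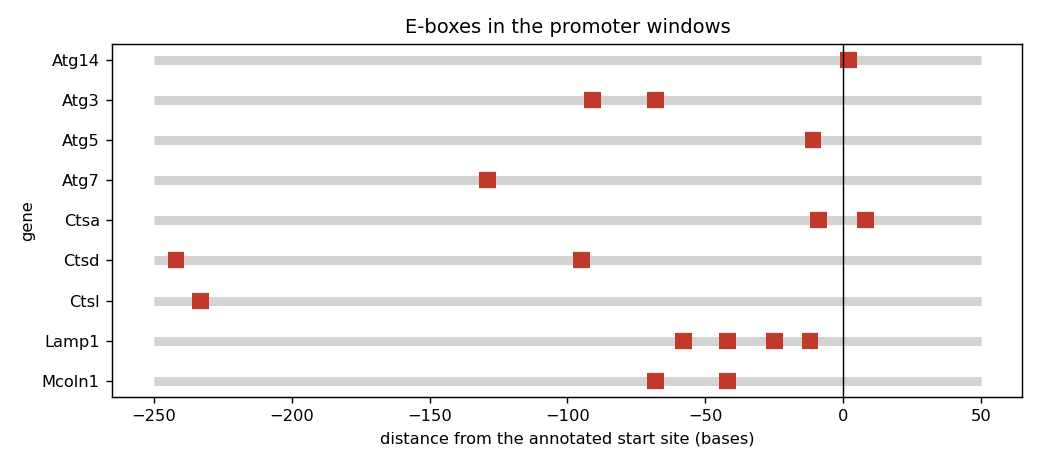
Position of each E-box (CACGTG, red) in the promoter windows of the 9 genes that hold one; the horizontal axis is the distance from the annotated start site in bases and the grey bars are the windows. Lamp1 holds 4, Ctsa, Ctsd, Atg3 and Mcoln1 hold 2, and the other 4 genes hold 1.

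Some facts of the arrays bear on all results. The 4 arrays without IL-7 shared 1 slide and scan and the 4 with IL-7 shared another, so an effect of withdrawal cannot be told apart from one of slide and scan. Vectors were compared within a slide, but there the vector went with the position. Without IL-7 the control arrays lay in columns 1 and 2 and the miR-125b arrays in columns 3 and 4. With IL-7 the control arrays lay in column 1 and the miR-125b arrays in column 3. The 75th percentile of the signal, to which each array was scaled, was 606 to 722 without IL-7 and 325 to 379 with IL-7. All 12 markers of B-lineage precursors were well above background on all 8 arrays. Of 12 myeloid markers, 5 were so on all 8 arrays, namely Csf1r, Itgam, Elane, Cd68 and Fcgr3. Adgre1 was on 6 arrays, Cd14 on 3, Lyz2 on 2, Mpo and Fcgr1 on 1 each, and S100a8 and S100a9 on none. The summed signal of the myeloid markers was 0.00536% to 0.00552% of the array total in miR-125b cells and 0.00456% to 0.00552% in control cells without IL-7, against 0.00305% to 0.00311% in miR-125b cells and 0.00267% to 0.00355% in control cells with IL-7. That of 5 plasma cell markers was 0.0124% to 0.0128% in miR-125b cells and 0.0114% in control cells without IL-7, against 0.00632% to 0.00647% in miR-125b cells and 0.00492% to 0.00515% in control cells with IL-7. That of 8 T and NK cell markers, 3 of them above background on no array, was 0.00206% to 0.00214% in miR-125b cells and 0.00244% to 0.00262% in control cells without IL-7, against 0.00122% to 0.00152% in miR-125b cells and 0.0017% to 0.00172% in control cells with IL-7. Among these, Cd8a, the alpha chain of a T cell co-receptor, had 1.61 and 1.69 on the log2 scale used below in miR-125b cells and 1.63 and 1.53 in control cells without IL-7, and was not well above background on any array with IL-7. It was at least 99-fold higher without IL-7 in miR-125b cells (adjusted p = 0.00012) and at least 86.5-fold higher in control cells (adjusted p = 0.000157), where the bound sets its mean without IL-7 against the lowest signal well above background on the arrays with IL-7. These 3 sums were thus higher without IL-7, and so were those of the B-lineage, erythroid and stromal lists. That of the B-lineage markers was 0.47% to 0.485% without IL-7 and 0.423% to 0.453% with it. Genes within a list moved both ways. On withdrawal in each cell type 1 T and NK marker, Cd8a, was called higher (limma, adjusted p under 0.05) and 2 lower. Of the plasma cell markers 2 were called higher and 2 lower, and of the myeloid markers 2 higher and 1 lower. The part of these sums in the withdrawal results was not tested. In bulk RNA, fewer cells of a type and less RNA per cell cannot be told apart.

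Values below are log2 signal relative to the array's 75th percentile, so that a step of 1 is a 2-fold step. A gene is said to have risen or fallen if limma's Benjamini-Hochberg adjusted p over all 20570 genes was under 0.05. Differences are log2 fold changes, SE is their standard error in limma's fit, and n = 2 arrays per group.

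**Figure D2:**
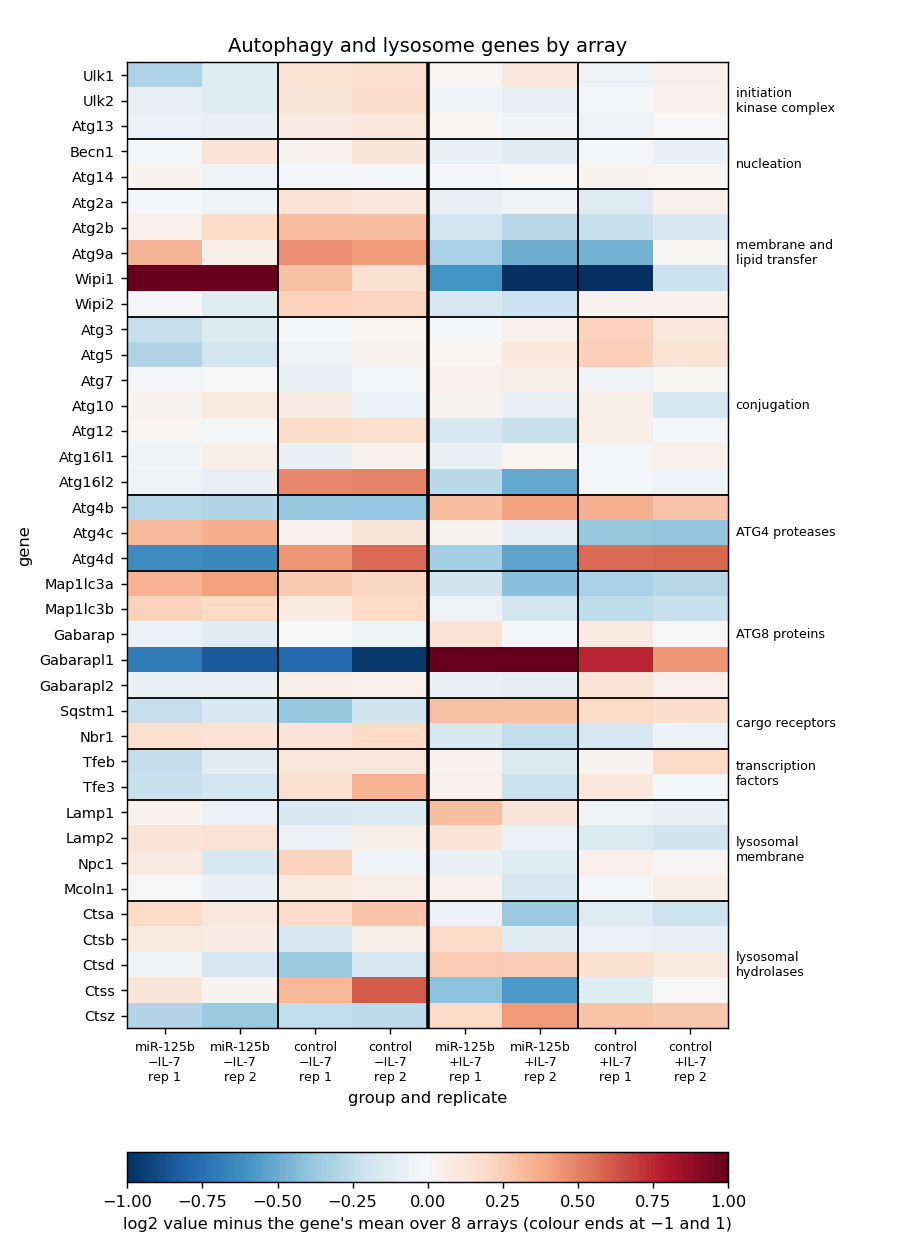
Log2 value of each gene on each of the 8 arrays minus that gene's mean over the arrays; columns are the arrays by group and rows are the genes by role. The widest contrasts between the 4 arrays without and the 4 with IL-7 are those of Gabarapl1 and Wipi1, and Atg4d separates the miR-125b arrays from the control arrays under both conditions.

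Few of these genes differed between miR-125b and control cells, and 1 of them stood out. Atg4d, a cysteine protease that processes ATG8 proteins and strips them from membranes, fell in miR-125b cells both with and without IL-7. With IL-7, 1 of the 38 genes fell and 0 rose (2.63%), where 2.62% of all genes tested were called, 1.48% lower and 1.14% higher. Without IL-7, 2 fell and 0 rose (5.26%), where 6.49% of all genes were called, 3.52% lower and 2.96% higher. Averaged over both conditions, 4 fell and 1 rose (13.2%), where 15.9% of all genes were called, 8.62% lower and 7.29% higher. The median of the 38 averaged differences was -0.06, beside -0.03 over all genes. With arrays scaled to their median these were 0.09 and 0.13, with 1 member lower and 1 higher, where 12.7% of all genes were called. With the replicate number as a block, 0 members were called with IL-7 (0.0826% of all genes) and 1, Atg4d, without IL-7 (2.22% of all genes). Of the 33 genes not called in the average, normexp background correction, quantile normalization or the deposited table called 7, 4 higher and 3 lower. These shares lie near those of all genes, so what follows concerns single genes and not the list.

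Among the proteases, Atg4d (probe at mm9 chr9:21078130-21078189) had 2.92 and 2.92 in miR-125b cells without IL-7, against 4.01 and 4.13 in control cells without IL-7. With IL-7 it had 3.22 and 3.04 in miR-125b cells, against 4.12 and 4.14 in control cells. All 4 miR-125b arrays lay below all 4 control arrays, and the gap within each condition was several times the spread between replicates. The difference was -1.15 without IL-7 (SE 0.09, adjusted p = 0.00833), -1.003 with IL-7 (SE 0.09, adjusted p = 0.0201) and -1.07 averaged (SE 0.06, adjusted p = 0.00229), a level of 0.475 times that of control cells. The averaged call held under all 17 alternative settings, with values of -1.12 to -0.92. The call with IL-7 alone was lost when any array but miR-125b with IL-7 replicate 1 was left out, at adjusted p = 0.0552 to 0.0937 and values of -1.01 to -0.91, and that without IL-7 was lost without control replicate 1 (-1.21, adjusted p = 0.0657), miR-125b replicate 1 (-1.15, adjusted p = 0.0709) or miR-125b replicate 2 (-1.14, adjusted p = 0.0646) of that condition. The replicate block ended the call with IL-7 too (adjusted p = 0.0604). Its relative Atg4b did not pass the test, at 0.07 averaged (SE 0.05, adjusted p = 0.423).

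Atg4c, a further protease of this family, was the gene that rose, and its probes disagree. The chosen probe (mm9 chr4:98926364-98926423) read 0.29 and 0.34 in miR-125b cells and 0.01 and 0.10 in control cells without IL-7. With IL-7 it read 0.00 and -0.13 in miR-125b cells, against -0.41 and -0.42 in control cells. The groups did not overlap within either condition, and the averaged difference was 0.30 (SE 0.05, adjusted p = 0.0202). A second, dimmer probe that overlaps the first by most of its length gave -0.91, and with both probes averaged the difference was -0.30 (adjusted p = 0.659), so the direction for Atg4c is uncertain. The call was also lost in 5 of the 8 fits that left out 1 array, at 0.28 to 0.33 (adjusted p = 0.0574 to 0.0817): those without control with IL-7 replicate 2 or without any one of the 4 arrays without IL-7.

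Of the 7 conjugation genes, 1 fell. Atg16l2, a relative of the scaffold Atg16l1 that brings the ATG12-ATG5 conjugate to the membrane, had 2.51 and 2.48 in miR-125b cells without IL-7, against 3.04 and 3.06 in control cells. With IL-7 the values were 2.29 and 2.06 in miR-125b cells, against 2.54 and 2.53 in control cells. All miR-125b arrays lay below the control arrays of the same condition. The averaged difference was -0.46 (SE 0.07, adjusted p = 0.0122), that without IL-7 was -0.55 (SE 0.09, adjusted p = 0.0324) and that with IL-7 did not pass the test, at -0.36 (SE 0.09, adjusted p = 0.109). A second probe gave a like averaged value of -0.47. The averaged call was lost without control replicate 1 (-0.46, adjusted p = 0.0527) or miR-125b replicate 2 (-0.45, adjusted p = 0.0503) of the arrays without IL-7 and with arrays scaled to their median (-0.31, adjusted p = 0.092), and the call without IL-7 was lost in 6 of 8 fits that left out 1 array (-0.57 to -0.54, adjusted p = 0.0552 to 0.163), namely those without any one array of the 4 without IL-7 or of the 2 control arrays with IL-7. That call was also lost with scaling to the median (-0.37, adjusted p = 0.177), without the filter on dim probes (adjusted p = 0.0887), with only the arrays compared (adjusted p = 0.0515) and with the replicate block (adjusted p = 0.0638). Atg16l1 itself was at 0.00 averaged (SE 0.06, adjusted p = 0.966). The other members, Atg3 and Atg10 (enzymes that pass on ATG8 and ATG12), Atg5, Atg7 (the activating enzyme of both systems) and Atg12, lay between -0.19 and 0.05 and did not pass the test.

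Of 5 genes that bind or feed lipids into the growing membrane, Wipi2 fell in the average. WIPI2 binds the lipid that the Beclin 1 complex makes and recruits the conjugation machinery. Its values were 2.05 and 1.95 in miR-125b cells, against 2.31 and 2.28 in control cells, without IL-7. With IL-7 they were 1.91 and 1.86 in miR-125b cells, against 2.11 and 2.11 in control cells. The groups did not overlap, and the averaged difference was -0.26 (SE 0.05, adjusted p = 0.0254). A second probe gave 0.03, the mean of both gave -0.12 (adjusted p = 0.139), scaling to the median gave -0.11 (adjusted p = 0.434), and the call was lost in 7 of 8 fits without 1 array (adjusted p = 0.0551 to 0.0969, values of -0.29 to -0.23), all but the one without miR-125b with IL-7 replicate 1. The lipid transfer proteins Atg2a and Atg2b and the scramblase Atg9a did not pass the test, at -0.08, -0.11 and -0.21. Wipi1, a relative of Wipi2 with a dim probe, differed by 1.28 without IL-7 (SE 0.40, adjusted p = 0.118), where both miR-125b arrays lay above both control arrays, and by -0.45 with IL-7 (SE 0.40, adjusted p = 0.565), where they overlapped. Averaged it was at 0.42 (SE 0.28, adjusted p = 0.354). Normexp background correction called it higher without IL-7 (0.79, adjusted p = 0.00498) and averaged (0.29, adjusted p = 0.0419), and so did the mean of its kept probes (1.21 without IL-7 and 0.59 averaged).

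Among the hydrolases, Ctss was the 1 of 5 tested that fell. Cathepsin S is a cysteine protease that trims the invariant chain of MHC class II in antigen-presenting cells. Its values were 2.05 and 1.96 in miR-125b cells without IL-7, against 2.26 and 2.55 in control cells, and 1.52 and 1.36 in miR-125b cells with IL-7, against 1.81 and 1.94 in control cells. The miR-125b arrays lay below the controls in both conditions. The averaged difference was -0.41 (SE 0.09, adjusted p = 0.0318), and neither condition alone passed the test, at -0.40 without IL-7 (adjusted p = 0.121) and -0.43 with IL-7 (adjusted p = 0.135). The call was lost with arrays scaled to the median (-0.26, adjusted p = 0.195), with the replicate block (adjusted p = 0.061) and in 6 of 8 fits without 1 array, at -0.45 to -0.34 (adjusted p = 0.056 to 0.104), where it held only without miR-125b with IL-7 replicate 1 or control without IL-7 replicate 1.

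The remaining roles held no gene that passed the test in a vector comparison with scaling to the 75th percentile. After normexp background correction Tfe3 (-0.28, adjusted p = 0.0388) was called lower and Lamp1 (0.20, adjusted p = 0.0391), Lamp2 (0.21, adjusted p = 0.0431) and Gabarapl1 (0.31, adjusted p = 0.0358) higher in the average, and Ulk1 lower without IL-7 (-0.35, adjusted p = 0.0371). The transcription factors Tfeb and Tfe3 averaged -0.23 (95% interval -0.40 to -0.05, adjusted p = 0.0889) and -0.29 (-0.50 to -0.08, adjusted p = 0.0709). The kinases Ulk1 and Ulk2 averaged -0.15 and -0.16 (adjusted p = 0.175 and 0.0793), and Becn1, which encodes Beclin 1, -0.03 (-0.17 to 0.11). Lamp1 and Lamp2, the main glycoproteins of the lysosomal membrane, were at 0.20 (0.05 to 0.35, adjusted p = 0.0843) and 0.17 (0.01 to 0.33, adjusted p = 0.127). None of the intervals given for these genes reaches a 2-fold change. Atg14, a partner of Beclin 1, was at -0.01, Atg13, a subunit of the ULK complex, at -0.08, Atg7 at 0.05, Mcoln1 at -0.10 and Npc1 at -0.13.

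**Figure D3:**
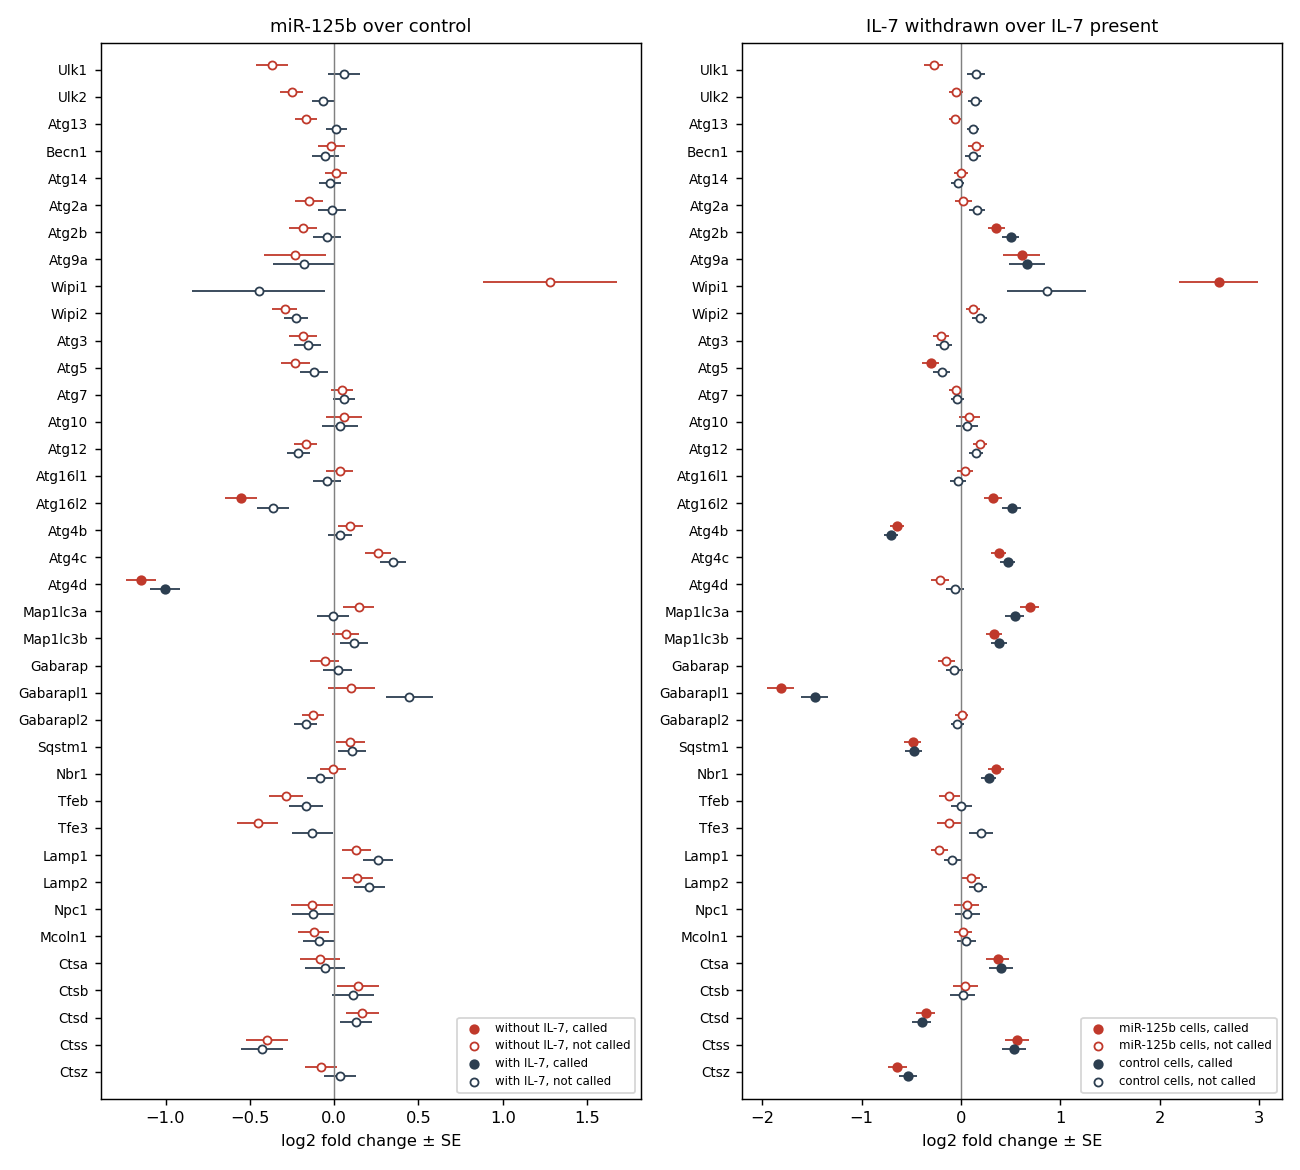
Log2 fold changes with the SE of the fit for the 38 tested genes; left, miR-125b over control without and with IL-7; right, IL-7 withdrawn over IL-7 present in miR-125b and control cells. Filled points passed the test; Atg4d, at -1.15 without IL-7 and -1.003 with IL-7, is the lowest on the left, and Gabarapl1, at -1.82 in miR-125b and -1.47 in control cells, the lowest on the right.

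Withdrawal of IL-7 moved more of these genes, in both directions. Gabarapl1, an ATG8 protein, fell to a level of 0.284 in miR-125b cells and 0.361 in control cells relative to the same cells with IL-7, while another ATG8 gene, Map1lc3a, rose. In miR-125b cells 10 of 38 rose and 6 fell (42.1%), where 52.6% of all genes were called, 20.5% higher and 32.1% lower. In control cells 9 rose and 5 fell (36.8%), where 54.4% of all genes were called, 20.3% higher and 34.1% lower. Only 2 of the 38 changed 2-fold or more in miR-125b cells (5.26%) and 1 in control cells (2.63%), against 15.4% and 17.4% of all genes. The shares of the members lie below those of all genes, a difference that was not tested. The 38 genes were brighter than all genes tested (median log2 value 2.54, against 0.19) and had a smaller median SE (0.086, against 0.12). The part of brightness in these shares was not tested. In all, 14 genes passed the test in both cell types, 9 higher and 5 lower, and 22 in neither.

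The split between higher and lower depended on how the arrays were scaled. With scaling to the 75th percentile the median of all genes was -0.11 in miR-125b cells and -0.13 in control cells. Scaling to the array median moved it to -0.37 in miR-125b and -0.47 in control cells. The members called then were 2 higher and 12 lower in miR-125b cells, where 56.3% of all genes were called (2414 higher, 9162 lower). In control cells 0 were higher and 14 lower, where 62.0% of all genes were called (2139 higher, 10607 lower). Quantile normalization and the authors' deposited value table each gave 12 higher and 4 lower in miR-125b cells and 17 higher and 4 lower in control cells. Of all genes quantile normalization called 4665 higher and 5035 lower in miR-125b cells, and 4902 higher and 5737 lower in control cells. The deposited table called 4699 higher and 5014 lower in miR-125b cells, and 4895 higher and 5724 lower in control cells. Normexp background correction gave 11 members higher and 6 lower in miR-125b cells and 13 higher and 5 lower in control cells. Of all genes it called 3094 higher and 10260 lower in miR-125b cells, and 3392 higher and 9640 lower in control cells. Relative to the median of all genes the 38 genes lay higher by 0.13 in miR-125b cells and 0.22 in control cells, as a median, and 25 of them in miR-125b and 31 in control cells lay above it; these values are the same with scaling to the array median. Atg4b, Gabarapl1, Sqstm1 and Ctsz were called lower in both cell types under all 5 scalings. Wipi1 and Map1lc3a were called higher under all 5 in miR-125b cells, and no gene was in control cells. Of the 22 genes not called in miR-125b cells, 10 were called under at least 1 of the other 4 scalings, 4 higher and 6 lower. Of the 24 not called in control cells 16 were, 8 higher and 9 lower, with Gabarapl2 in both counts. That a gene did not pass the test therefore refers, in what follows, to scaling to the 75th percentile.

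**Figure D4:**
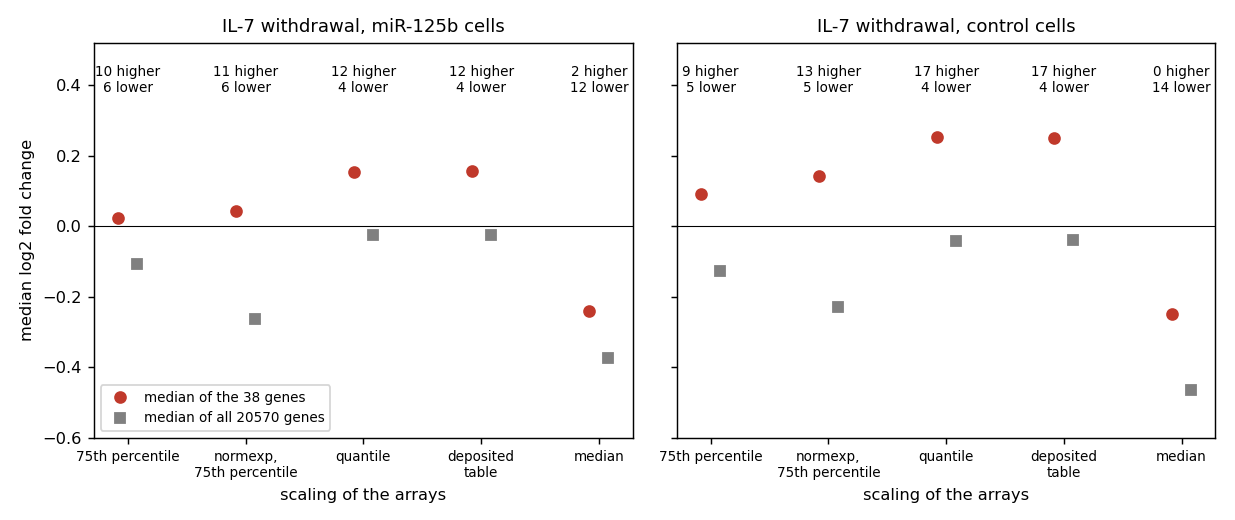
Median log2 fold change on IL-7 withdrawal of the 38 genes (red circles) and of all 20570 genes (grey squares) under 5 ways of scaling the arrays, in miR-125b cells (left) and control cells (right), with the number of the 38 genes called higher and lower above. The red point lies above the grey one in every case, while the calls range from 17 higher and 4 lower to 0 higher and 14 lower in control cells. The calls of all genes there were 4902 higher and 5737 lower with quantile normalization, and 2139 higher and 10607 lower with median scaling.

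The ATG8 proteins are small ubiquitin-like proteins that are fixed to the autophagosome membrane and bind cargo receptors. Gabarapl1 (probe at mm9 chr6:129492254-129492313) had 2.23 and 2.09 in miR-125b cells without IL-7, against 3.93 and 4.03 with IL-7. In control cells it had 2.15 and 1.97 without IL-7, against 3.70 and 3.37 with it. The 4 arrays without IL-7 all lay more than 1 log2 unit below the 4 with it. The change was -1.82 in miR-125b cells (SE 0.14, adjusted p = 0.00159) and -1.47 in control cells (SE 0.14, adjusted p = 0.00151), and it was called under all 18 alternatives in both. Map1lc3a, which encodes LC3A, moved the other way: it had -0.26 and -0.20 in miR-125b cells without IL-7, against -0.81 and -1.03 with it. In control cells it had -0.35 and -0.40 without IL-7, against -0.93 and -0.89 with it. The groups did not overlap, and the changes were 0.69 in miR-125b cells (SE 0.09, adjusted p = 0.00317) and 0.54 in control cells (SE 0.09, adjusted p = 0.00547). The call in control cells was lost with scaling to the median (0.20, adjusted p = 0.228).

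Map1lc3b, which encodes the commonly used autophagosome marker LC3B, rose by a smaller amount, 0.33 in miR-125b cells (SE 0.08, adjusted p = 0.0174) and 0.38 in control cells (SE 0.08, adjusted p = 0.0104). Scaling to the median left 0.07 in miR-125b cells (adjusted p = 0.696) and 0.04 in control cells (adjusted p = 0.801). In miR-125b cells the call was also lost without miR-125b replicate 2 with IL-7 (0.27, adjusted p = 0.0795) or miR-125b replicate 1 (0.32, adjusted p = 0.0802) or 2 (0.35, adjusted p = 0.0646) without IL-7, and in control cells without control replicate 2 without IL-7 (0.33, adjusted p = 0.0597). Gabarap and Gabarapl2 did not pass the test in either cell type, at -0.15 to 0.01. Scaling to the median called Gabarap lower in miR-125b (-0.41) and control cells (-0.41). For Gabarapl2 in control cells the sign depended on the scaling, since it was -0.04 (adjusted p = 0.651) but 0.22 (adjusted p = 0.0308) after quantile normalization and -0.38 (adjusted p = 0.0337) with scaling to the median.

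The ATG4 proteases split as well. Atg4b, the family member with the broadest activity on ATG8 proteins, had 0.19 and 0.18 in miR-125b cells without IL-7, against 0.78 and 0.88 with it. In control cells it had 0.09 and 0.08 without IL-7, against 0.83 and 0.76 with it. The arrays of the 2 conditions did not overlap, and the fall was -0.64 (SE 0.07, adjusted p = 0.00228) in miR-125b cells and -0.70 (SE 0.07, adjusted p = 0.00164) in control cells, called under all 18 alternatives. Atg4c, with the values given above, rose by 0.38 (SE 0.08, adjusted p = 0.00982) in miR-125b cells and 0.47 (SE 0.08, adjusted p = 0.00464) in control cells, but its second probe gave -0.67 in miR-125b and -2.13 in control cells, and the mean of both probes -0.15 in miR-125b and -0.83 in control cells. Scaling to the median left 0.12 (adjusted p = 0.494) in miR-125b and 0.13 (adjusted p = 0.435) in control cells, and leaving out miR-125b without IL-7 replicate 2 left 0.36 (adjusted p = 0.0533) in miR-125b cells. Atg4d did not pass the test on withdrawal, at -0.21 in miR-125b cells (adjusted p = 0.0992) and -0.06 in control cells (adjusted p = 0.569). Scaling to the median called it lower in miR-125b (-0.47) and control cells (-0.40).

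The cargo receptors went opposite ways. Sqstm1 encodes p62, which binds ubiquitin and ATG8 proteins and is itself degraded by autophagy. Its values were 2.45 and 2.52 in miR-125b cells without IL-7, against 2.97 and 2.97 with it, and 2.30 and 2.48 in control cells without IL-7, against 2.88 and 2.85 with it. The groups did not overlap, and Sqstm1 fell by 0.49 (SE 0.09, adjusted p = 0.00626) in miR-125b cells and by 0.48 (SE 0.09, adjusted p = 0.00611) in control cells. A second probe of this gene, of far lower signal, gave 0.33 in miR-125b and 0.73 in control cells, and the mean of both probes gave -0.08 (adjusted p = 0.647) in miR-125b and 0.13 (adjusted p = 0.468) in control cells, so the direction rests on the brighter probe. Nbr1, a receptor of the same kind, rose by 0.35 (SE 0.08, adjusted p = 0.0127) in miR-125b cells and 0.28 (SE 0.08, adjusted p = 0.0268) in control cells. With scaling to the median its value was 0.09 (adjusted p = 0.584) in miR-125b cells and -0.06 (adjusted p = 0.699) in control cells. Leaving out 1 array ended its call in 3 of 8 fits in miR-125b cells (0.31 to 0.36, adjusted p = 0.0562 to 0.0619), those without miR-125b with IL-7 replicate 2 or either miR-125b array without IL-7. In control cells 5 of 8 such fits did (0.22 to 0.31, adjusted p = 0.0504 to 0.123), those without control with IL-7 replicate 1 or any array without IL-7.

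The genes that supply lipid and membrane moved upward where they passed the test under scaling to the 75th percentile. Atg9a, the transmembrane scramblase carried by vesicles that seed the autophagosome, had 0.57 and 0.28 in miR-125b cells without IL-7, against -0.10 and -0.27 with it, and 0.68 and 0.64 in control cells without IL-7, against -0.25 and 0.24 with it. The groups did not overlap, but the 2 control arrays with IL-7 lay 0.49 apart. The rise was 0.61 in miR-125b cells (SE 0.18, adjusted p = 0.0351) and 0.66 in control cells (SE 0.18, adjusted p = 0.026). It was lost in 6 of 8 fits without 1 array in miR-125b cells (0.47 to 0.75, adjusted p = 0.0549 to 0.159), all but those without a control array with IL-7, and with the replicate block (adjusted p = 0.0588). In control cells it was lost without control with IL-7 replicate 1 (0.42, adjusted p = 0.0879), control without IL-7 replicate 1 (0.64, adjusted p = 0.0998) or replicate 2 (0.68, adjusted p = 0.0809), and scaling to the median left 0.35 (adjusted p = 0.15) in miR-125b and 0.32 (adjusted p = 0.166) in control cells. Atg2b, which moves lipid into the growing membrane, had -1.38 and -1.24 in miR-125b cells without IL-7, against -1.62 and -1.71 with it, and -1.12 and -1.13 in control cells without IL-7, against -1.66 and -1.59 with it. It rose by 0.36 in miR-125b cells (SE 0.08, adjusted p = 0.0152) and 0.50 in control cells (SE 0.08, adjusted p = 0.00481), again with no overlap. In miR-125b cells its call was lost without miR-125b with IL-7 replicate 2 (0.31, adjusted p = 0.0715), without miR-125b without IL-7 replicate 2 (0.28, adjusted p = 0.0787) and under each of the other 4 scalings (0.09 to 0.25), and in control cells with scaling to the median (0.16, adjusted p = 0.299). Atg2a, its paralogue, did not pass the test, at 0.02 in miR-125b and 0.16 in control cells. Wipi2 did not pass it either, at 0.12 in miR-125b and 0.19 in control cells. Normexp correction called Wipi2 higher in miR-125b (0.25) and control cells (0.26), and quantile normalization in control cells (0.31). Its second probe gave -0.15 in miR-125b and -0.27 in control cells.

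Wipi1, a lipid-binding relative of Wipi2, is singled out after its values were seen, because its change in miR-125b cells was the largest of all 38. Its probe was dim: it was well above background on 7 arrays, among them 1 of the 2 miR-125b arrays with IL-7. The values were -1.35 and -1.60 in miR-125b cells without IL-7, against -3.58 and -4.56 with it. In control cells they were -2.69 and -2.82 without IL-7, against -4.04 and -3.19 with it. The arrays without IL-7 were higher in both cell types, and the miR-125b arrays were highest. The rise was 2.59 in miR-125b cells (SE 0.40, adjusted p = 0.00421), held in all 17 alternatives that kept the gene, with values of 0.99 (normexp background correction) to 3.08 (without miR-125b with IL-7 replicate 1). In control cells the change was 0.86 (SE 0.40, adjusted p = 0.113). A second probe, dimmer still and well above background on 6 arrays, gave 1.19 in miR-125b cells and 0.49 in control cells, and the third was above background on only 2 arrays and is given no value.

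**Figure D5:**
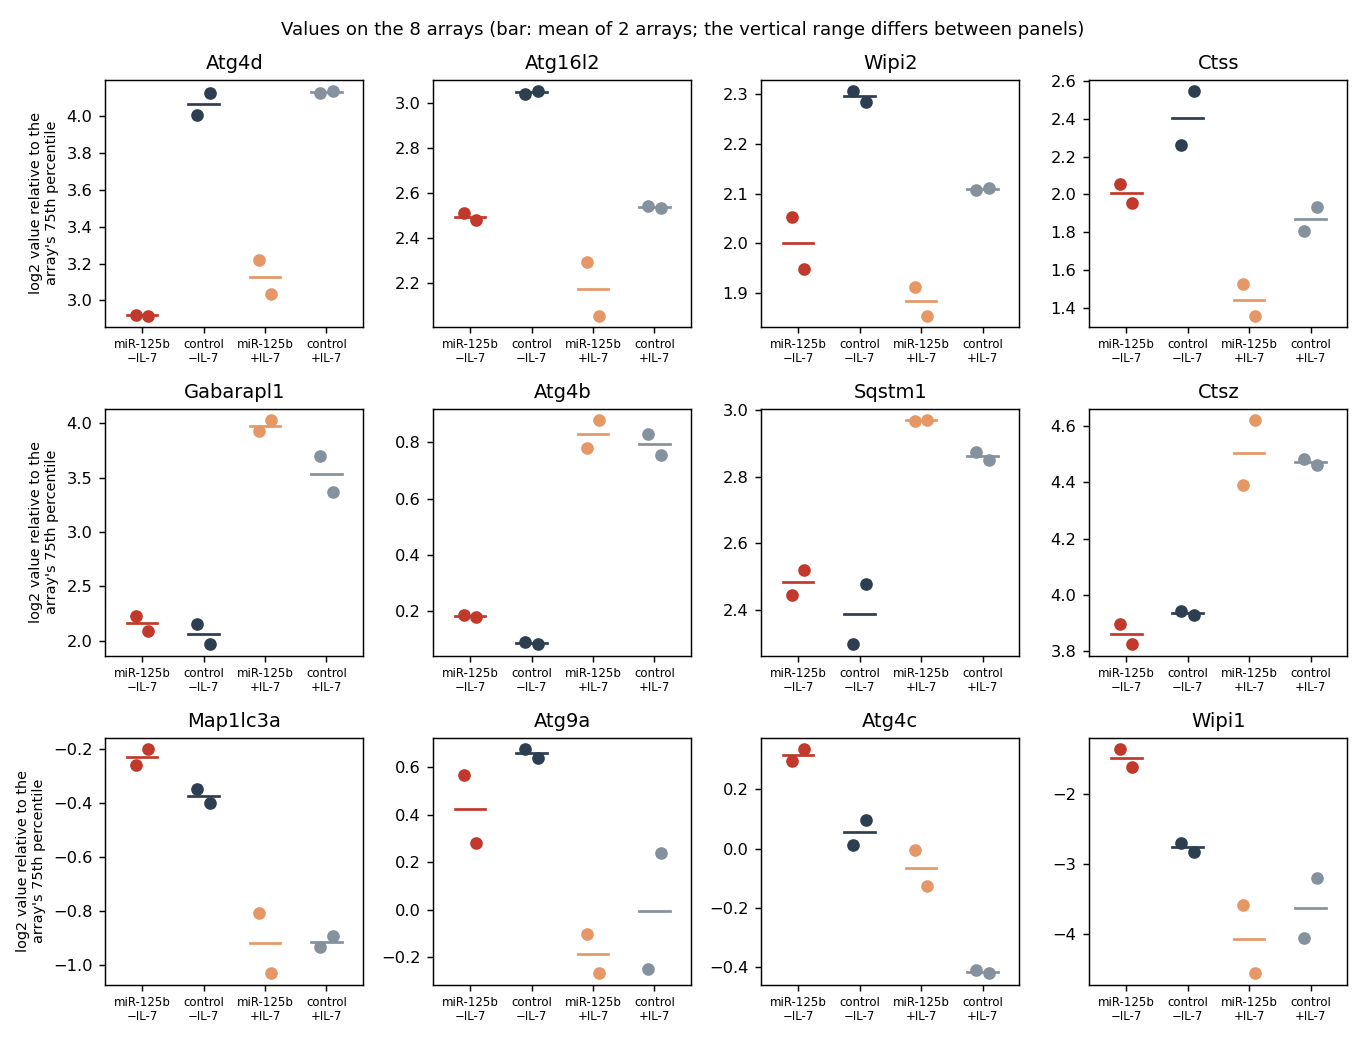
Values of 12 of the genes on the 8 arrays, as log2 relative to each array's 75th percentile; points are arrays, bars the mean of 2, and the groups run from miR-125b without IL-7 through control without IL-7 and miR-125b with IL-7 to control with IL-7. Atg4d is lower on every miR-125b array than on any control array, Gabarapl1 is lower on every array without IL-7 than on any with it, and the vertical range differs between panels.

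The lysosomal hydrolases moved both ways, 2 higher and 2 lower of 5 tested in each cell type. Ctsz, a cysteine carboxypeptidase, had 3.90 and 3.82 in miR-125b cells without IL-7, against 4.39 and 4.62 with it, and 3.94 and 3.93 in control cells without IL-7, against 4.48 and 4.46 with it. There was no overlap, and the change was -0.64 (SE 0.10, adjusted p = 0.00392) in miR-125b cells and -0.53 (SE 0.10, adjusted p = 0.00596) in control cells, called under all 18 alternatives. Ctsd, the aspartic protease cathepsin D, had 3.14 and 3.00 in miR-125b cells without IL-7, against 3.43 and 3.42 with it, and 2.80 and 3.00 in control cells without IL-7, against 3.32 and 3.27 with it. It fell by 0.36 in miR-125b cells (SE 0.10, adjusted p = 0.025) and by 0.39 in control cells (SE 0.10, adjusted p = 0.0173), with no overlap. A second probe, of lower signal, gave -0.07 in miR-125b and -0.15 in control cells. The mean of both probes ended the call in miR-125b cells (-0.21, adjusted p = 0.0699). In miR-125b cells the call of Ctsd was also lost on leaving out any miR-125b array (-0.42 to -0.29, adjusted p = 0.0513 to 0.12). In control cells it was lost without control with IL-7 replicate 1 (-0.37, adjusted p = 0.0743) or without control without IL-7 replicate 1 (-0.29, adjusted p = 0.0899), and quantile normalization gave -0.20 (adjusted p = 0.114) in miR-125b cells and -0.25 (adjusted p = 0.0576) in control cells.

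Ctss rose by 0.56 (SE 0.12, adjusted p = 0.0128) in miR-125b cells and 0.53 (SE 0.12, adjusted p = 0.0148) in control cells. Of the values given with the vector comparison, those of the arrays without IL-7 were higher within each cell type, with no overlap. The call was lost with scaling to the median, at 0.30 (adjusted p = 0.181) in miR-125b and 0.19 (adjusted p = 0.364) in control cells. In miR-125b cells it was also lost without miR-125b with IL-7 replicate 2 (0.48, adjusted p = 0.0645) or miR-125b without IL-7 replicate 1 (0.51, adjusted p = 0.0667), and in control cells without control with IL-7 replicate 1 (0.47, adjusted p = 0.0729) or control without IL-7 replicate 2 (0.39, adjusted p = 0.0635). Ctsa, a serine carboxypeptidase that also protects other lysosomal enzymes, rose by 0.37 in miR-125b cells (SE 0.12, adjusted p = 0.0439) and 0.40 in control cells (SE 0.12, adjusted p = 0.0329). It is the less certain of the pair, since its call was lost in 7 of 8 fits without 1 array in miR-125b cells (0.21 to 0.41, adjusted p = 0.0636 to 0.165), where it held only without miR-125b with IL-7 replicate 1, and in 6 of 8 in control cells (0.35 to 0.44, adjusted p = 0.0557 to 0.131), where it held only without a miR-125b array with IL-7. In miR-125b cells the replicate block ended it too (adjusted p = 0.0528). Scaling to the median left 0.10 (adjusted p = 0.625) in miR-125b and 0.06 (adjusted p = 0.774) in control cells. Ctsb, cathepsin B, did not pass the test, at 0.04 in miR-125b and 0.02 in control cells.

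Among the 7 conjugation genes, Atg16l2 rose by 0.32 (SE 0.09, adjusted p = 0.0327) in miR-125b cells and 0.51 (SE 0.09, adjusted p = 0.00666) in control cells, and its second probe gave -0.02 in miR-125b and 0.12 in control cells. Scaling to the median left 0.06 (adjusted p = 0.757) in miR-125b and 0.17 (adjusted p = 0.327) in control cells, and in miR-125b cells the call held in 1 of 8 fits without 1 array, the one without miR-125b with IL-7 replicate 1 (values 0.20 to 0.44 over the 8). Atg5, which with ATG12 forms part of the enzyme that attaches ATG8 proteins, fell by 0.31 (SE 0.08, adjusted p = 0.0265) in miR-125b cells and did not pass the test in control cells, at -0.20 (SE 0.08, adjusted p = 0.095). Its call was lost without any one of the 4 miR-125b arrays (-0.36 to -0.25, adjusted p = 0.0508 to 0.127), after normexp correction (-0.21, adjusted p = 0.0543) and after quantile normalization (-0.13, adjusted p = 0.129). The other 5, Atg3, Atg7, Atg10, Atg12 and Atg16l1, lay between -0.20 and 0.19 and did not pass the test. Atg12 was called higher after normexp correction (0.35 in miR-125b and 0.26 in control cells) and quantile normalization (0.36 in miR-125b and 0.33 in control cells). Scaling to the median called Atg3 lower in miR-125b cells (-0.46). In control cells it called Atg3 (-0.51), Atg5 (-0.54), Atg7 (-0.38) and Atg16l1 (-0.37) lower.

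The starting kinases, the Beclin 1 complex, the transcription factors and the lysosomal membrane proteins held no gene that passed the test on withdrawal with scaling to the 75th percentile, though several did under other scalings. Ulk1 had 3.75 and 3.94 in miR-125b cells and 4.20 and 4.22 in control cells without IL-7, against 4.06 and 4.17 in miR-125b cells and 4.01 and 4.11 in control cells with IL-7. The miR-125b arrays without IL-7 were the lowest, yet the change missed the threshold in miR-125b cells (-0.28, SE 0.09, adjusted p = 0.052) and in control cells (0.15, SE 0.09, adjusted p = 0.22). In miR-125b cells Ulk1 was called lower with scaling to the median (-0.54, adjusted p = 0.0101), after normexp correction (-0.24, adjusted p = 0.0416) and with the replicate block (adjusted p = 0.0432), and was at -0.07 after quantile normalization. In control cells it was called higher after quantile normalization (0.38, adjusted p = 0.0166), after normexp correction (0.24, adjusted p = 0.0433) and in the deposited table (0.38, adjusted p = 0.017), and was at -0.19 with scaling to the median, so its direction there is uncertain. Of the other genes of these roles, quantile normalization called Becn1 higher in miR-125b cells (0.28) and Becn1 (0.26), Atg13 (0.31), Tfe3 (0.35) and Lamp2 (0.33) higher in control cells. Scaling to the median called Tfeb (-0.38) and Lamp1 (-0.48) lower in miR-125b cells and Atg14 (-0.37) and Lamp1 (-0.43) lower in control cells. Ulk2 was at -0.05 in miR-125b cells, but the mean of its kept probes gave 0.31 (adjusted p = 0.0293). Tfeb was at -0.12 (95% interval -0.37 to 0.14) in miR-125b cells and 0.00 (-0.25 to 0.26) in control cells, and Tfe3 at -0.12 (-0.42 to 0.17) in miR-125b cells and 0.20 (-0.09 to 0.50) in control cells. Lamp1 was at -0.22 (-0.43 to -0.004, adjusted p = 0.0797) in miR-125b cells and -0.09 (-0.30 to 0.12) in control cells. Mcoln1, a lysosomal calcium channel, was at 0.02 (-0.21 to 0.25) in miR-125b and 0.05 (-0.18 to 0.28) in control cells, and Npc1, which exports cholesterol, at 0.06 in both. Becn1 was at 0.15 in miR-125b and 0.12 in control cells. None of the intervals given reaches a 2-fold change. Of the 9 genes with an E-box in the window, 8 were tested on withdrawal: Ctsa rose and Ctsd fell in both cell types, Atg5 fell in miR-125b cells, and Atg3, Atg7, Atg14, Lamp1 and Mcoln1 did not pass the test.

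The difference of the withdrawal response between miR-125b and control cells was called by limma for 0 of the 38 genes and for 0 (0%) of all 20570. At an unadjusted p under 0.05 there were 2 of the 38, Wipi1 and Ulk1, and 1199 of all genes. For Wipi1 the response was larger in miR-125b cells by 1.73 (95% interval 0.35 to 3.11, adjusted p = 0.749), and for Ulk1 smaller by a difference of -0.43 (-0.76 to -0.10, adjusted p = 0.732). For Gabarapl1 the difference was -0.34 (-0.83 to 0.14, adjusted p = 0.948). The intervals of the 38 had a median width of 0.60, so only large differences could have been resolved with 2 arrays per group. A call in one cell type and not in the other, as for Wipi1 and Atg5, is therefore not shown to differ between them.

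A wider list of 116 tested genes of the same pathways, in 4 groups, was described beside the members. In the vector comparison averaged over conditions 10 rose and 15 fell (21.6%, against 15.9% of all genes). Trp53inp1, a p53-induced stress protein that binds ATG8 proteins, fell by 1.65 (SE 0.06, adjusted p = 0.00126), and Neu1, the lysosomal sialidase, by 1.00 (SE 0.08, adjusted p = 0.003). Gaa, the acid glucosidase that degrades glycogen in lysosomes, rose by 0.96 (SE 0.08, adjusted p = 0.0039), followed by Lgmn (a cysteine endoprotease) at 0.68 and Asah1 (acid ceramidase) at 0.63. Of 51 lysosomal enzymes and membrane proteins 9 rose and 7 fell, of 30 other autophagy factors 1 rose and 6 fell, of 16 vacuolar ATPase subunits 1 fell and of 19 nutrient-sensing genes and related factors 1 fell. On withdrawal 27 rose and 22 fell in miR-125b cells (42.2%) and 28 rose and 25 fell in control cells (45.7%), against 52.6% and 54.4% of all genes. In miR-125b cells Trp53inp1 rose by 1.42, Ids (a lysosomal sulfatase) by 1.40 and Cd63 (a lysosomal membrane tetraspanin) by 1.12, whereas Hyal2, a hyaluronidase, fell by 0.84, Gusb, a glucuronidase, by 0.70, and Gaa by 0.58. In control cells the changes were 1.53 for Trp53inp1, 1.22 for Ids, 1.49 for Cd63, -0.82 for Hyal2, -0.74 for Gusb and -0.93 for Gaa, and all passed the test (adjusted p = 0.000794 to 0.0259). All of these genes were called in the same direction under all 5 scalings, except Ids in control cells with scaling to the median (0.88, adjusted p = 0.0608). The counts of the list did depend on it. With each array set to its median, 11 genes rose and 3 fell in the vector comparison, where 2066 of all genes rose and 554 fell. On withdrawal 13 were then higher and 40 lower in miR-125b cells and 11 higher and 48 lower in control cells. Quantile normalization gave 12 higher and 14 lower in the vector comparison, where 2064 of all genes rose and 1873 fell. On withdrawal it gave 42 higher and 13 lower in miR-125b cells, and 43 higher and 9 lower in control cells. The calls of all genes on withdrawal under both scalings are given above.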

How the data were processed

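The scanner files hold a processed signal, an intensity on a linear scale that was background-subtracted and, per the file headers, extracted with Agilent Feature Extraction 10.7.3.1 (arrays with IL-7) or 10.7.1.1 (arrays without IL-7); the submitters' processing notes name 10.7.1.1. They also hold, per the file headers, marks of another kind (other: well above background, saturated, not uniform). The authors' deposited value table, a linear intensity with the same median (21.7) on every array, served as an alternative.

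Control spots and spots marked not uniform were left out (58 probes dropped of 55681). Spots of a probe were averaged as log2 values, and the log2 75th percentile of the array was subtracted. A probe was kept where at least 1 group had it well above background on its 2 arrays, and the brightest probe stood for its gene. Gene names were updated through RefSeq accessions and symbols, 27267 probes by accession, and 22376 kept the file's name. Probe positions are in mm9.

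The fit was made in limma 3.58.1 (lmFit, eBayes; R 4.3.3) over 4 group means and all 8 arrays, with 4 residual and 1.81 prior degrees of freedom. A gene was called at a two-sided Benjamini-Hochberg adjusted p under 0.05 over all 20570 genes, in 6 comparisons. The procedure was tested on simulated data, with the outcome not reported here, so the calls draw no support from it. Alternatives were background correction, between-array scaling, the filter, the probe choice, the variance prior, the replicate block and leaving out arrays.

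The 42 genes, the lists and the tests were chosen with earlier results of these data known. Values on all arrays are given for each gene called in a vector comparison and for the 5 that rose most and the 5 that fell most on withdrawal in both cell types. Of the wider list, up to 4 called genes per direction and comparison were eligible to be named. The number of arrays, 2 per group, limits the precision. The replicates are 2 independent experiments with separate clones, per the labels' design text. Where numbers recur between groups, the replicate differences correlated at -0.098 to 0.115, and no label ties a number to 1 of the experiments, so the numbers were not treated as pairs; calls that a replicate block ended are named with the genes. None of the spots was saturated (0 on each array), and 0 columns of other series were used.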

Additional observations from a re-analysis of the deposited data

How the results depend on the processing

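Of the 38 called combinations of gene and comparison, those of Atg4d in the averaged vector comparison and of Gabarapl1, Atg4b and Ctsz on withdrawal in both cell types were called under every alternative run, as were Map1lc3a and Wipi1 in miR-125b cells (Wipi1 was removed by the filter to probes above background on all 8 arrays). Of the called genes, 8 of 14 on withdrawal in control cells, 6 of 16 in miR-125b cells and 1 of 5 in the averaged vector comparison kept their call whichever 1 array was left out, and 0 of 1 and 0 of 2 did in the vector comparisons with and without IL-7. Leaving out 1 array gave 0 to 1 members called for the vector with IL-7, 0 to 2 without IL-7, 1 to 5 averaged, 7 to 14 on withdrawal in miR-125b cells and 9 to 14 in control cells. For the vector with IL-7 (1 called) the count was 4 with a mean-variance trend, and 0 without the filter on dim probes, with the replicate block and with only the arrays compared. Without IL-7 (2 called) it was 4 with normexp, 7 with the trend, and 1 with median scaling, without the filter and with the replicate block. Averaged (5 called) it was 11 with normexp, 13 with the trend, and 2 with median scaling and without the filter. On withdrawal in miR-125b cells (16 called) it was 8 without the filter. The cause was not tested. Values of the opposite sign came from the mean of all kept probes, for Atg4c in the averaged vector comparison (-0.30), for Atg4c (-0.15) and Ulk2 (0.31) on withdrawal in miR-125b cells, and for Atg4c (-0.83) and Sqstm1 (0.13) in control cells. In control cells Gabarapl2 turned to 0.22 both with quantile normalization and in the deposited table, and Nbr1 to -0.061 with median scaling.

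Replicate numbers recur in the groups, but the differences between replicates 1 and 2 correlated at -0.098 to 0.115 between groups, and the labels do not say which of the 2 experiments a number marks, so the main values use no block. With the replicate block the number of all genes called was 17 for the vector with IL-7, against 538 with no block, and 456 without IL-7, against 1334. Limits: slide and scan differ wherever IL-7 differs, and the effects cannot be told apart, vector is aligned with position on the slide, each group has 2 arrays, and probes near background (Wipi1) vary most.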
